A study of Mus musculus with 8 samples.

Results

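Genes for 9 matrix proteases and protease inhibitors were followed in the lactating mammary gland, comparing wild-type mice (WT) with Th-POK knockouts (KO). They were the matrix metalloproteinase (MMP) genes Mmp2, Mmp3, Mmp11 and Mmp14, the tissue inhibitor genes Timp1, Timp2 and Timp3, and the plasminogen activator genes Plau and Plat. The genes were picked by name for their part in remodelling at involution, with earlier results of these data known. A probe was taken for one of them when its RefSeq accession belonged to that symbol. All 9 had at least 1 probe, among 18749 genes on the array. All 9 were well above background on all 8 arrays and entered the test, in which 14137 genes were compared.

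Total RNA came from mammary gland tissue of lactating females, 4 WT and 4 KO, on a C57/Bl6 background at lactation day 1; the arrays are described as independent biological replicates, and the females as age matched. No treatment is named for either group. Th-POK is a zinc finger transcription factor best known from CD4 T cells, and no promoter or Cre line that would limit its loss to the epithelium is named. Brightness on an Agilent array of 1 colour was the measurement, given here as log2 signal after quantile normalization. Probes well above background made up between 66.8% and 75.3% of each array, and 0 spots were saturated. Zbtb7b, which encodes Th-POK, gave WT signals of 9.90 to 10.42. In KO it read 1.55 to 1.65, not well above background on any array, so it was at least 81.5-fold lower there (adjusted p = 5.71e-09, limma). That bound holds for the scanner's own background subtraction; under normexp the log2 difference was smaller, -4.25 (adjusted p = 9.89e-07). All 7 milk protein and secretory genes used to check the tissue were measured, with mean list signals between 17.25 and 17.45 on WT arrays and between 17.21 and 17.52 on KO arrays. All WT arrays shared 1 slide and all KO arrays another, so genotype and slide cannot be told apart.

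MMPs are zinc enzymes, made as inactive precursors, that cut collagens, laminins and other proteins of the matrix. Mmp14 sits in the cell membrane and, together with Timp2, activates the precursor of Mmp2, while the TIMPs bind active MMPs and block them. Plau and Plat cut plasminogen to plasmin, a serine protease that digests fibrin and can activate MMP precursors. In the mammary gland these enzymes are known for dissolving the matrix around the alveoli after weaning, and much of their RNA is made by stromal cells.

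The 9 genes leaned to higher signals in the KO glands. Of them, 8 had a higher mean in KO than in WT, and 5 were higher at an adjusted p under 0.05 in limma: Mmp11, Timp2, Mmp14, Timp1 and Plau. None was lower at that threshold (0 by the methods' t-test as well, and 0 at an unadjusted p under 0.05 in limma). Over all genes tested, 16.5% were called in either direction, 7.53% as higher and 8.96% as lower in KO. The median difference of the 9 genes was 0.54 on the log2 scale, against -0.02 over all genes tested. In 6 of the 9 the WT and KO arrays did not overlap, where 24.1% of all genes tested were so separated. Because the 9 were chosen with earlier results known, these counts and the median describe them and do not test the list. The count of 5 changed when single arrays were left out. It became 1 (Plau) without WT array 2 or 3 or without KO array 1, 2 or 3. It was 2 without WT array 4, 4 without WT array 1 and 6 without KO array 4. Over all genes the number called higher, 1065 in the main fit, changed as well. That number was 387 and 472 without WT arrays 2 and 3, and 373, 451 and 266 without KO arrays 1, 2 and 3. Without WT array 4 it was 805, without WT array 1 it was 1388 and without KO array 4 it was 1016.

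**Figure D1:**
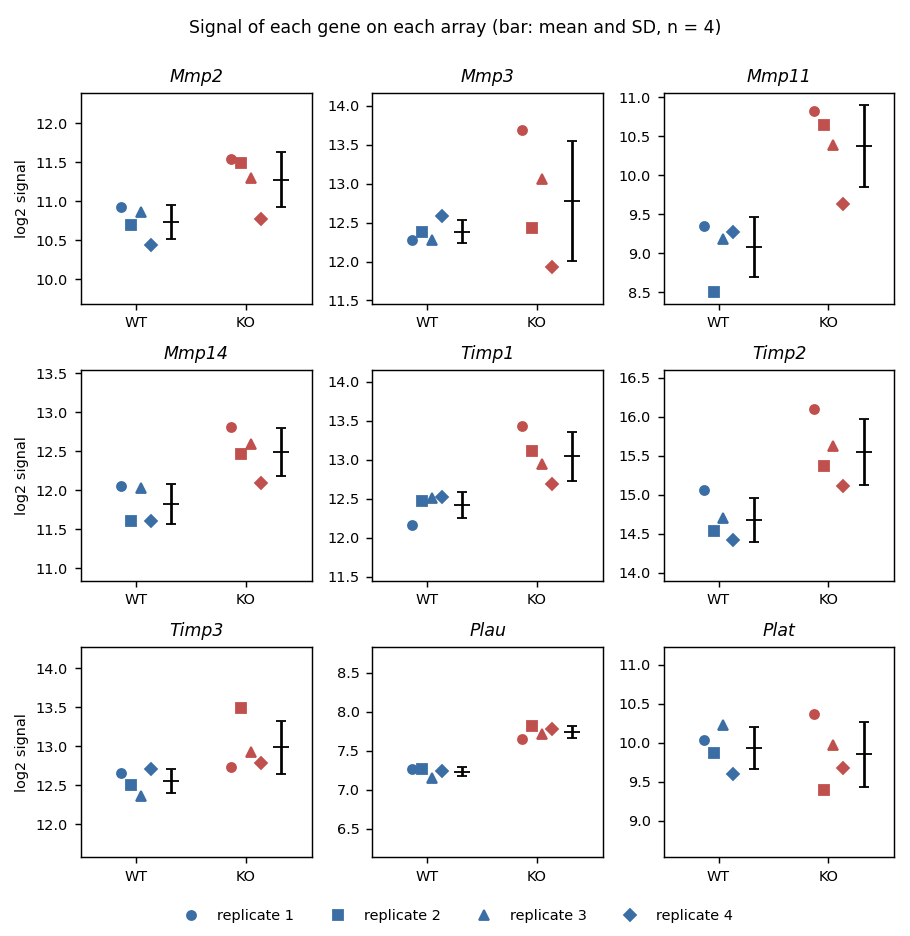
Log2 signal (y axis) of the 9 genes on each WT and KO array, with marker shape for the replicate number and a bar for mean and SD (n = 4); every panel spans the same range of log2 units. Plau shows tight groups far apart, Mmp3 a wide KO group, and the KO array of replicate 4 is the lowest KO value for 6 of the 9 genes.

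The sequence just before the start site was read for the genes that shared a rise, and for Mmp3 as a stromelysin that did not pass. RefSeq promoter windows (GRCm38.p6) were at hand for 6 of the 9 genes, Mmp3, Mmp11, Mmp14, Timp1, Timp2 and Timp3. In the 250 bases before each start, 4 motifs were searched on both strands: the AP-1 motif TGANTCA, the GC box GGGCGG, the TATA box TATAAA and the CCAAT box CCAAT. Below are the last 200 bases before the start, 5′ to 3′ on the strand of the gene, with motif matches in capitals.
Mmp3 promoter, chr9:7445622-7445821, plus strand: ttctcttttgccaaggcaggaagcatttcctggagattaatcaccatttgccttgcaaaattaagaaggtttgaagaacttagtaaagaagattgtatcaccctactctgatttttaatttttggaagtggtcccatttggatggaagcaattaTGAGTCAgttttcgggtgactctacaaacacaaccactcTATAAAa
Mmp11 promoter, chr10:75932503-75932702, minus strand: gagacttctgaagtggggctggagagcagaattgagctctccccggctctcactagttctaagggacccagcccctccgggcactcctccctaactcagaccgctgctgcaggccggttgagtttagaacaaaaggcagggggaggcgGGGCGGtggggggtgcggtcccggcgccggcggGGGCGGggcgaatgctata
Mmp14 promoter, chr14:54431398-54431597, plus strand: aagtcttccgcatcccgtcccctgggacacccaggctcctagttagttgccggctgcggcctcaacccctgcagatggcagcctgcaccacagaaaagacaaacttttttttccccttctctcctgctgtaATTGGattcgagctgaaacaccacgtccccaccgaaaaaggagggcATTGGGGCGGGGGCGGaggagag
Timp1 promoter, chrX:20869966-20870165, plus strand: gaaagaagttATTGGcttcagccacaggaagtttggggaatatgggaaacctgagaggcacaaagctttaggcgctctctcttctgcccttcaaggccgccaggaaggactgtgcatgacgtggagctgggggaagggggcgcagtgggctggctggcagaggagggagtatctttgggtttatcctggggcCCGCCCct
Timp2 promoter, chr11:118355412-118355611, minus strand: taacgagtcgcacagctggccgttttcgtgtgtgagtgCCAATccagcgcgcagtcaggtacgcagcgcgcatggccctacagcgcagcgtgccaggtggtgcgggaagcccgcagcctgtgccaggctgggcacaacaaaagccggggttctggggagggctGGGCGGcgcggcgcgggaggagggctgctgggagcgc

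Mmp3 held the single AP-1 match, from 46 to 40 bases before the start. It also had a TATA box match, from 7 to 2 bases before the start, and was poor in G and C (37.6%). AP-1 matches occur in 6.75% of all 32851 promoter windows of this length and TATA boxes in 12.4%. Mmp11, Mmp14, Timp1 and Timp2, the called genes with a window, had no match to either motif. Each held at least 1 GC box, which 32.7% of windows have, and G and C made up between 54.4% and 68.0% of their bases. Mmp14, Timp1 and Timp2 also had CCAAT boxes, found in 33.8% of windows; in Mmp14 a CCAAT box overlapped a GC box by 1 base. Timp3, which did not pass, had a GC box and 65.6% G and C, so that base composition and the GC box were shared by called and uncalled genes. A match is only a run of letters, and no binding was measured.

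Mmp11 (stromelysin 3), an MMP that is switched on inside the secretory pathway and is typical of fibroblasts beside epithelium, showed the largest difference of the 9. Its signals were 9.35, 8.50, 9.18 and 9.27 on WT arrays 1 to 4 and 10.83, 10.64, 10.39 and 9.63 on KO arrays 1 to 4. All KO arrays lay above all WT arrays, with KO array 4 nearest to the WT group. The mean rose from 9.07 ± 0.39 to 10.37 ± 0.53 (SD, n = 4 each), 2.46-fold, a log2 difference of 1.30 (95% interval 0.65 to 1.95, adjusted p = 0.0234, limma). Leaving out any 1 of WT arrays 2 and 3 (adjusted p = 0.0572 and 0.0535) or KO arrays 1, 2 and 3 (0.0605, 0.0599 and 0.0655) ended the call.

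Mmp14, the membrane-type enzyme that activates Mmp2, had signals of 12.05, 11.60, 12.03 and 11.60 on the WT arrays and 12.81, 12.46, 12.59 and 12.09 on the KO arrays. The groups did not overlap, but the lowest KO array exceeded the highest WT array by only 0.04. Mmp14 rose 1.59-fold, by 0.67 on the log2 scale (95% interval 0.25 to 1.09, adjusted p = 0.0422, limma). A dimmer second probe for Mmp14 followed the first over the 8 arrays (Pearson r = 0.926) but gave a difference of 0.38 (adjusted p = 0.196 in the limma fit across probes). Leaving out any 1 of WT arrays 2, 3 and 4 or KO arrays 1, 2 and 3 ended the call, with adjusted p between 0.0659 and 0.113, as did averaging the probes (0.0837).

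Mmp2 (gelatinase A), which cuts denatured collagen and type IV collagen, had signals of 10.93, 10.70, 10.87 and 10.44 on the WT arrays and 11.54, 11.49, 11.30 and 10.78 on the KO arrays. KO array 4 fell among the WT arrays, and the other 3 KO arrays lay above them. The difference of 0.54 (95% interval 0.11 to 0.98) did not pass in limma (adjusted p = 0.0801). It passed once arrays were blocked by replicate number (adjusted p = 0.0334) and when KO array 4 was left out (0.71, adjusted p = 0.0259).

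Mmp3 (stromelysin 1) is a broad stromal protease that can activate other MMP precursors. Its WT arrays were close together, at 12.28, 12.38, 12.28 and 12.59. The KO arrays were spread widely, at 13.69, 12.43, 13.06 and 11.93, with 1 of them below every WT array and 2 above every WT array. The difference of 0.40 carried an interval from -0.37 to 1.16 (adjusted p = 0.423, limma), a range that holds a fall as well as a rise to more than 2-fold. Leaving out KO array 1 brought the difference to 0.09 and leaving out KO array 4 to 0.68 (adjusted p = 0.822 and 0.116).

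Among the inhibitors, Timp2 is the one that both blocks MMPs and serves as the bridge between Mmp14 and the Mmp2 precursor. Its signals were 15.06, 14.53, 14.70 and 14.42 on the WT arrays and 16.10, 15.36, 15.63 and 15.11 on the KO arrays. No KO array fell below a WT array, though the gap between the groups was 0.05. Timp2 rose 1.83-fold, by 0.87 on the log2 scale (95% interval 0.35 to 1.39, adjusted p = 0.0364, limma). Leaving out any 1 of WT arrays 2, 3 and 4 or KO arrays 1, 2 and 3 ended this call too, with adjusted p between 0.0649 and 0.0962. Within replicate numbers its difference lay between 0.69 and 1.04.

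Timp1, an inducible inhibitor of many MMPs that also acts as a growth factor, had signals of 12.17, 12.47, 12.51 and 12.52 on the WT arrays and 13.43, 13.11, 12.94 and 12.68 on the KO arrays. The groups did not overlap, and the KO arrays covered a wider range than the WT arrays. Timp1 rose 1.54-fold, by 0.62 on the log2 scale (95% interval 0.24 to 1.01, adjusted p = 0.0399, limma). A second probe gave 0.53 (adjusted p = 0.0644) and tracked the first at r = 0.982 over the 8 arrays. Of the 5 calls that of Timp1 was the least firm: it ended when arrays were blocked by replicate number (adjusted p = 0.0699), under 75th percentile scaling (0.0608), and on leaving out any 1 array other than KO array 4 (between 0.0595 and 0.0910).

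Timp3, the inhibitor that stays bound to the matrix and also blocks ADAM proteases, had signals of 12.66, 12.51, 12.36 and 12.70 on the WT arrays and 12.73, 13.49, 12.93 and 12.79 on the KO arrays. All KO arrays were above all WT arrays by a gap of 0.03, and KO array 2 was the highest of all. The difference of 0.43 (95% interval 0.02 to 0.83) did not pass in limma (adjusted p = 0.123), nor when any 1 array was left out (adjusted p between 0.111 and 0.242), and it was 0.26 when KO array 2 was.

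The urokinase gene Plau had the smallest spread of the 9 and the firmest call. Its signals were 7.26, 7.27, 7.15 and 7.25 on the WT arrays and 7.66, 7.82, 7.71 and 7.78 on the KO arrays. The groups were separated by 0.39, while each spanned less than that. Plau rose 1.42-fold, by 0.51 on the log2 scale (95% interval 0.31 to 0.71, adjusted p = 0.0139, limma), and kept its call in each of the 17 alternatives, with 1 array left out (adjusted p up to 0.0463) or with other processing (up to 0.0261). The size moved with the background correction: with normexp on the median spot signal the difference was 0.34. A second and dimmer Plau probe gave 0.48 (adjusted p = 0.0794), with r = 0.795 between the probes.

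Plat, the gene of tissue plasminogen activator, did not pass. It had signals of 10.04, 9.87, 10.23 and 9.60 on the WT arrays and 10.37, 9.39, 9.97 and 9.68 on the KO arrays. The groups overlapped fully, with 1 KO array above and 1 below every WT array. Its difference was -0.08 (95% interval -0.59 to 0.43, adjusted p = 0.820, limma), and its second probe gave -0.11.

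**Figure D2:**
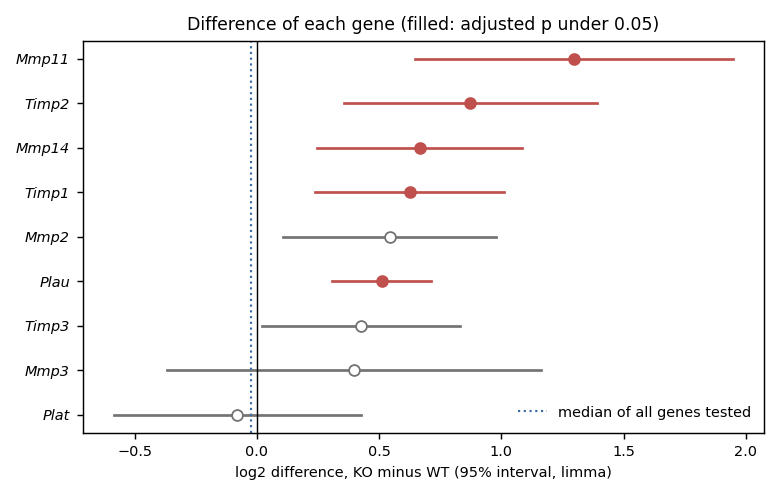
Log2 difference (x axis, KO minus WT) of each gene with its 95% interval from limma; filled points passed an adjusted p under 0.05, open points did not, and the dotted line is the median of all genes tested (-0.02). The intervals of Mmp11, Timp2, Mmp14, Timp1, Plau, Mmp2 and Timp3 lie above 0, and those of Mmp3 and Plat include it.

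Whether an enzyme and its inhibitor, or a pair of related genes, changed by different amounts was tested on the log2 difference within each array, by exact two-sided permutation over 70 relabelings (smallest possible p = 0.0286), with Benjamini-Hochberg adjustment over the 5 pairs. Mmp14 minus Timp2 changed by -0.21 in KO (exact p = 0.114, adjusted p = 0.190), and Mmp2 minus Timp2 by -0.33 (exact p = 0.0857, adjusted p = 0.190). Neither change passed the test. Mmp3 minus Timp1 changed by -0.23 (exact p = 0.429, adjusted p = 0.536) and Timp1 minus Timp3 by 0.20 (exact p = 0.543, adjusted p = 0.543). Plau minus Plat changed by 0.59, from -2.70 ± 0.30 to -2.11 ± 0.49 (SD, n = 4 each; exact p = 0.114, adjusted p = 0.190), which did not pass. Between arrays with the same replicate number, Plau minus Plat was higher in KO in 4 of 4 pairs (0.06, 1.03, 0.82 and 0.46 for numbers 1 to 4) and Mmp2 minus Timp2 lower in 4 of 4 (-0.43, -0.04, -0.50 and -0.35). Each gave p = 0.125 by exact sign flips (adjusted p = 0.312), the smallest p that 4 pairs allow, so the paired test could not pass in this design. Mmp14 minus Timp2 was lower in 3 of 4 pairs. These values describe shifts within an array and not the ratio of enzyme to inhibitor, because probes differ in brightness per molecule.

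The KO arrays held a common order for most of the metalloproteinase and inhibitor genes. KO array 1 was the highest KO array for 7 of the 9 genes and KO array 4 the lowest for 6 of them, namely Mmp2, Mmp3, Mmp11, Mmp14, Timp1 and Timp2. When KO and WT arrays sharing a replicate number were compared, KO was higher in 4 of 4 pairs for Mmp2, Mmp11, Mmp14, Timp1, Timp2, Timp3 and Plau, in 3 of 4 for Mmp3 and in 2 of 4 for Plat. Replicate number 4 gave the smallest difference for the same 6 genes, from -0.66 for Mmp3 to 0.69 for Timp2. Plau stood outside that order, with its lowest KO signal on array 1 and differences between 0.39 and 0.56.

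**Figure D3:**
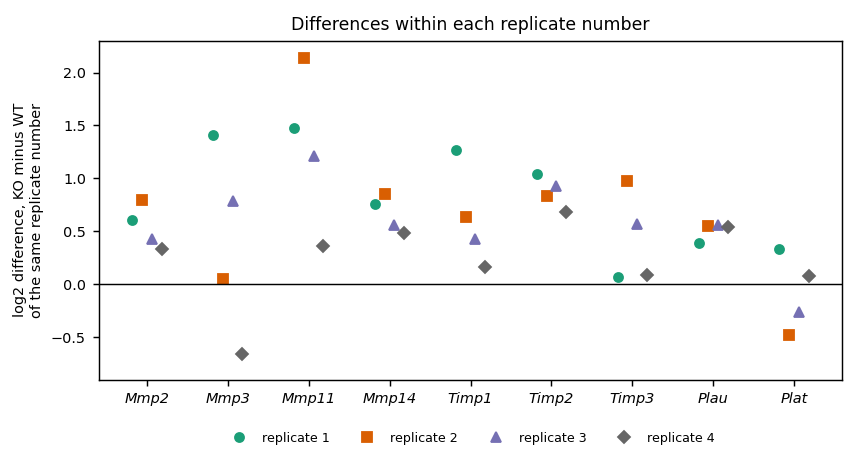
Log2 difference (y axis) between the KO and WT array of the same replicate number for each gene, with 1 marker per replicate number. Mmp11 ranges from 0.36 to 2.14 and Mmp3 from -0.66 to 1.41, whereas the 4 differences of Plau lie between 0.39 and 0.56.

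Among the 9 genes, Mmp14 and Timp2 had the most similar profiles, with Pearson r = 0.971 over the 8 arrays and 0.914 once genotype means were removed. Mmp2 and Mmp14 followed, at 0.941 and 0.872. Plau and Plat were negatively correlated on that second measure (r = -0.870, against -0.313 over all arrays), and Timp3 and Plat likewise (-0.759). Within a genotype Plau varied little (SD 0.06 in WT and 0.07 in KO, n = 4 each), so its r there rests on small differences. All these values share the same 8 arrays and normalization, so they are given as a description. Searching the other 14136 genes, the profiles closest to Mmp11 over the 8 arrays were those of Cpsf4l (r = 0.996) and Cd302 (0.992). Those closest to Mmp14 were Col4a6 (0.995), which encodes a basement membrane collagen chain, and Evc2 (0.992). Timp2 was most like Zfp994 and Man1a (both 0.985). Plau was most like Zfp82 (0.991) and the aggrecan-cleaving protease gene Adamts15 (0.986).

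Of 17 other MMP genes with a probe, 8 were tested, and Mmp8, Mmp10, Mmp16 and others were not well above background on all arrays of a genotype. Of the 8, 1 was called higher and 1 lower (25% in all, against 16.5% of all genes tested). Mmp12, the elastase of macrophages, rose by 0.71 (standard error 0.19, adjusted p = 0.0385, limma) from a low signal of 4.27 ± 0.34 (SD, n = 4). It was not well above background on all 8 arrays, so it entered through 1 genotype only. With normexp background correction its difference was 0.10 (adjusted p = 0.400). Mmp17, a membrane-anchored MMP, fell by 0.65 (adjusted p = 0.0438), and averaging its probes gave -0.44 (adjusted p = 0.110). Mmp9 and Mmp13, named here after their values were seen because of their place in tissue remodelling, had differences of -0.15 (adjusted p = 0.518) and -0.64 (adjusted p = 0.280). Mmp15, a membrane-type MMP also named after its values were seen, had a difference nearly as large as that of Mmp11, 1.29 (95% interval 0.16 to 2.42), but its WT arrays ranged from 7.30 to 9.42, the groups overlapped, and it did not pass (adjusted p = 0.101). The median difference of the list was -0.05, against 0.54 for the 9 genes.

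In the wider plasminogen system none of 11 genes tested passed in limma, in either direction (0 called, 1 at an unadjusted p under 0.05, and 0 by the methods' t-test). Over all genes tested 16.5% were called, and 11 genes are too few to set a count of 0 apart from that share. The inhibitor gene Serpine2 came nearest, at 0.69 (standard error 0.22, adjusted p = 0.0618), or 0.36 with normexp background correction (adjusted p = 0.0828). Hgf, a growth factor related to plasminogen, followed at 0.60 (adjusted p = 0.158). Hgf did pass when its probes were averaged (0.81, adjusted p = 0.0223) and when WT array 4 was left out (0.87, adjusted p = 0.0268), and under normexp its difference was 0.32 (adjusted p = 0.159). Plaur, the receptor that holds urokinase at the cell surface, differed by -0.06 (adjusted p = 0.879). Plaur was named for its role after its value was seen, and whether it differed from Plau in response was not tested.

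Of 18 other protease inhibitor genes, 3 rose and none fell at the threshold (16.7% called, against 16.5% of all genes tested). Their median difference was 0.39. Wfdc2, a small secreted protein with protease inhibitor domains, rose from 10.90 ± 0.45 to 14.74 ± 0.71 (SD, n = 4 each), by 3.84 (adjusted p = 0.00180, limma). Serpinb5 (maspin), a mammary epithelial serpin, rose by 1.04 (standard error 0.23, adjusted p = 0.0248). Reck, a membrane-anchored inhibitor of Mmp2, Mmp9 and Mmp14, rose by 0.58 (standard error 0.13, adjusted p = 0.0233). Timp4, the remaining TIMP gene and chosen after its values were seen, lay lower in KO without overlap, at 9.80 ± 0.21 in WT and 8.74 ± 0.89 in KO (SD, n = 4 each), but did not pass (-1.07, adjusted p = 0.0890).

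Among 20 ADAM and ADAMTS genes tested, 3 rose and 2 fell (25% called, against 16.5% of all genes tested). The median difference was 0.05. Adamts15 rose by 1.64 (standard error 0.11, adjusted p = 0.000233, limma), from 10.09 ± 0.15 to 11.73 ± 0.09 (SD, n = 4 each). Adamts3, a protease that trims procollagen, rose by 1.23 (adjusted p = 0.0314), and Adamts10, which binds fibrillin, by 0.43 (adjusted p = 0.0247). Adam28 fell by 0.44 (adjusted p = 0.0275, but 0.0541 when arrays were blocked by replicate number) and Adamts18 fell by 0.56 (adjusted p = 0.0370). With normexp background correction Adamts3 gave 0.57, Adamts10 0.26, Adam28 -0.25 and Adamts18 -0.32, the last no longer passing (adjusted p = 0.107).

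Other extracellular and activating proteases were mostly higher, 23 of 26 on average, with a median of 0.31. Past the threshold were 3 (11.5%, against 16.5% of all genes tested). They were Pappa, which cleaves IGF binding proteins (1.77, standard error 0.43, adjusted p = 0.0314, with overlapping groups, and 1.14 under normexp), Cpe, a carboxypeptidase of secretory granules (1.75, standard error 0.31, adjusted p = 0.0144) and Prss8, a membrane serine protease of epithelia (0.43, standard error 0.11, adjusted p = 0.0312). Furin, which activates the precursors of Mmp11 and Mmp14, differed by -0.15 (adjusted p = 0.519) and was named for that role after its value was seen.

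Genes for the matrix proteins that these enzymes cut did not lean to either side. Of 27 tested, 3 were called higher and 2 lower, and the median difference was -0.00186. Dcn, a collagen-binding proteoglycan, rose by 0.50 (adjusted p = 0.0257, limma), and the laminin genes Lama5 and Lamb2 rose by 0.59 (adjusted p = 0.0274) and 0.42 (adjusted p = 0.0409). Bgn, another small proteoglycan, fell by 0.70 (adjusted p = 0.0151), and Nid2, a basement membrane linker, fell by 0.95 (adjusted p = 0.0265). Across all 6 of these lists 13 genes were called higher and 5 lower. In the order given, the lists held 8, 11, 18, 20, 26 and 27 tested genes. The share called ran from 0 to 25% by list, against 16.5% of all genes tested. Whether the lists together differed from all genes was not tested. Among the called genes Adamts15, Wfdc2 and Cpe kept their calls whichever array was left out, and each of the others lost its call in at least 1 such fit. The 13 became 3 on leaving out WT array 2, KO array 1 or KO array 3, 4 on leaving out WT array 3 and 7 on leaving out KO array 2. The 5 became 0 on leaving out KO array 3, 1 on leaving out WT array 2, WT array 3 or KO array 2, 2 on leaving out KO array 1 and 8 on leaving out KO array 4. Calls over all genes changed in these fits too. Those called lower, 1266 in the main fit, were 249 without KO array 3 and 1266 without KO array 4.

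**Figure D4:**
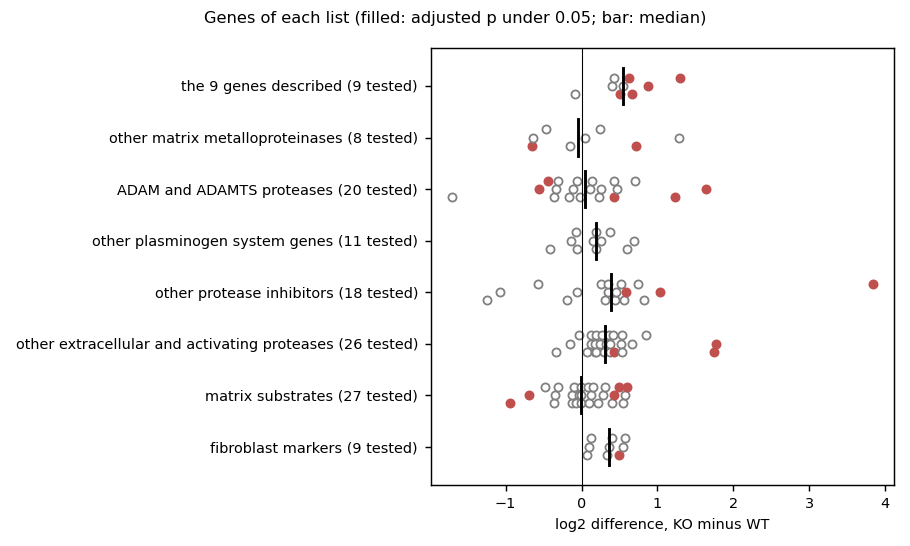
Log2 difference (x axis, KO minus WT) of each tested gene in the lists named on the left; filled points passed an adjusted p under 0.05 in limma and black bars are list medians. The 9 genes have a median of 0.54, the protease inhibitors 0.39, and the matrix substrates -0.00186, and the point far to the right is Wfdc2 at 3.84.

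Whole glands mix many cell types, and more cells of a type cannot be told apart from more RNA per cell in such samples. Fibroblast markers had a higher mean in KO for 9 of 9 genes tested, with 1 called (Dcn) and a median of 0.36; their mean signal lay between 12.55 and 12.83 on WT arrays and was 13.37, 13.05, 12.86 and 12.75 on KO arrays 1 to 4. The macrophage mean, and the signals of Mmp2, Mmp11 and Timp1, fell in that order across the KO arrays too. Mmp3, Mmp14 and Timp2 ran from KO array 1 through 3 and 2 to 4, and Timp3, Plau and Plat had other orders. The neutrophil mean was 10.05, 9.20, 9.08 and 9.08 on KO arrays 1 to 4, so that only KO array 1 stood apart. Macrophage markers had 0 of 9 called (median 0.04; mean signals between 10.45 and 11.04 on WT and between 10.43 and 11.41 on KO arrays), endothelial markers 0 of 10 (median -0.04) and mural cell markers 0 of 6 (median 0.08), all in limma and by the methods' t-test; at an unadjusted p under 0.05 in limma the counts were 0, 2 (1 higher and 1 lower) and 1. Neutrophil markers had 3 of 7 called, all higher. Their mean signals lay between 7.23 and 7.72 on WT and between 9.08 and 10.05 on KO arrays. Their defining genes Elane and Cxcr2 did not pass the filter on background. The called genes were Camp and Ngp, with very low WT means of 1.95 and 2.46, and Ltf, with a high WT mean of 16.27. That mean lies above those of the milk genes Lalba (15.45) and Csn3 (15.83), and which cells gave the Ltf signal was not tested. On WT arrays Camp ran from 1.51 to 2.49 and Ngp from 1.93 to 3.78. Zbtb7b in KO, not well above background, read 1.55 to 1.65. Camp and Ngp may thus have entered the test through KO only, where they are high, so the 3 of 7 is no measure of neutrophils. Their low WT values also weigh on the list means. S100a9, S100a8, Mpo and Csf3r were not called, at 2.19, 0.49, 0.24 and 0.08 (adjusted p = 0.0566, 0.357, 0.524 and 0.946, limma). Luminal epithelial markers had 4 of 7 called higher (57.1%, median 0.52), though Elf5 lay lower in KO (-0.35, adjusted p = 0.107, limma). Basal markers had 1 of 8 called lower (12.5%, median -0.18) and adipocyte markers 2 of 10 called higher (20%, median 0.42). Among fibroblast, neutrophil and T cell markers the shares called were 11.1%, 42.9% and 28.6%, against 16.5% of all genes tested. The macrophage, endothelial, mural and mast cell lists, with 0 called, are too short to be set apart from that share. Mast cell markers had 0 of 5 called (median 0.11; also 0 at an unadjusted p under 0.05 in limma), and T cell markers had 2 of 7 called lower (median -0.31). The part of these cell types in the values of the 9 genes was not tested.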

How the data were processed

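The 9 genes and all gene lists were chosen with earlier results of these data known. The authors deposited, for each array, the output of Agilent Feature Extraction (10.7 per the submitters' processing notes), in which the processed intensity had been background-subtracted and detrended within the array, and a table of log2 values that they had quantile-normalized in GeneSpring. Flags of 0 or 1 for spots well above background, saturated or outlying came with the deposited output and were classed as other values. The headers name build mm9; gene symbols came from a GRCm38.p6 table, so no gene coordinates are given, and promoter coordinates are those of GRCm38.p6. No probe sequences were used here.

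Control spots were dropped, and log2 processed intensities of the rest were brought to 1 distribution by quantile normalization over 8 arrays (limma 3.58.1, R 4.3.3). Outlier spots (64 to 100 per array) were left out and spots of a probe averaged. Of 41174 probes, 27479 matched 18749 symbols. A probe entered when well above background on all 4 arrays of a genotype, and the brightest probe stood for its gene. Genes were compared with limma over 14137 genes with Benjamini-Hochberg adjustment, and called at an adjusted p under 0.05; the fit was tested on simulated data. Groups and replicate numbers came from the sample titles. Same-numbered WT and KO arrays deviated together from their genotype means (r of 0.22, 0.16, 0.30 and 0.28 for numbers 1 to 4). The sample titles do not say what a shared number stands for, so pairing is inferred from these data only. The main fit used no block, and the fit blocked by replicate number is given where it changes a call. The authors' log2 table, 75th percentile scaling, normexp (on the median spot signal), other filters, the mean of a gene's probes, unmatched probes, the methods' t-test and each array left out were the alternatives. Genes were named by rule: the 9 genes, called genes of each list (up to 6), and the closest profiles, of which those for Timp1 are not reported here. The number of arrays limits the precision.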

Additional observations from a re-analysis of the deposited data

Results flagged for a closer look

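Extreme values were sought in 102 groups of 4 arrays (genes, pairs and list means), by the gap from an extreme array to its nearest neighbour over the whole range. An array stood far from the others in 2 of them (1.96%), where chance alone gives about 1 in 20. For Timp1, WT array 1 was low, at 12.17, with the other WT arrays between 12.47 and 12.52; without it the Timp1 difference was 0.54 (adjusted p = 0.0628, limma). For the mean of the neutrophil markers, KO array 1 was high, at 10.05, with the other KO arrays between 9.08 and 9.20.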

How the results depend on the processing

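Of the 234 values computed for the 9 genes, the 5 pairs and Zbtb7b under the alternatives, 195 kept their direction and their side of the threshold. Many of these belong to results that were not called in the main fit. A call was lost in 34, all of them for Mmp11, Mmp14, Timp1 and Timp2. With 1 array left out these genes kept their calls in 3, 2, 1 and 2 of 8 fits. No filter on dim probes left 2 of the 9 genes called, and the methods' t-test 1 (6 before adjustment). Without a filter the calls of Mmp14 (0.67, adjusted p = 0.0620), Timp1 (0.62, 0.0586) and Timp2 (0.87, 0.0553) were lost, and by the methods' t-test those of Mmp11 (1.30, 0.0575), Mmp14 (0.67, 0.0793), Timp1 (0.62, 0.0733) and Timp2 (0.87, 0.0761). Timp1 was also lost with 75th percentile scaling (0.53). Blocking arrays by replicate number ended the call of Timp1 (0.62, adjusted p = 0.0699) and added Mmp2 (0.54, 0.0334), and the mean of its probes ended that of Mmp14 (0.52, 0.0837). The block changed no other call among the 9 genes; over the other lists it raised the genes called higher from 13 to 21. Those lists had 8 higher and 2 lower by the methods' t-test, and 3 lower with normexp and 3 with no filter. Over all genes the t-test called 593 higher and 796 lower, and keeping unmatched probes 1651 higher. With 1 array left out, the difference ranged from 1.11 to 1.55 for Mmp11, 0.56 to 0.80 for Mmp14, 0.45 to 0.71 for Mmp2, 0.49 to 0.74 for Timp1, 0.69 to 1.02 for Timp2 and -0.25 to 0.0745 for Plat, whose sign turned without WT array 3 (0.0182) or KO array 2 (0.0745). Mmp3 ranged from 0.0938 (without KO array 1) to 0.68 (without KO array 4) and Timp3 from 0.26 (without KO array 2) to 0.51. Timp1 minus Timp3 ranged from -0.0149 (without KO array 1) to 0.34, Mmp14 minus Timp2 from -0.26 to -0.13 (without KO array 1), Mmp3 minus Timp1 from -0.40 (without KO array 1) to -0.0640 (without KO array 4). Mmp14 minus Timp2 was -0.11 with 75th percentile scaling and -0.35 with the mean of probes; Mmp2 minus Timp2 was -0.21 with 75th percentile scaling, and Plau minus Plat 0.39 with normexp. None of these passed. Between 1 and 6 of the 9 genes were called higher, between 3 and 18 of the other lists higher and between 0 and 8 lower, and between 266 and 1388 of all genes higher and 249 and 1682 lower; these fits have fewer samples. Other causes were not tested. Zbtb7b and Mmp12 gave no value where all 8 arrays had to be above background.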
